A study of Homo sapiens with 3 samples.

Results

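PAGE1, GAGE2A, SSX1, VCX, VCX2, VCX3A and VCX3B are 7 cancer-testis genes of the X chromosome, a class whose transcription is normally kept to male germ cells and which some tumours switch on. They were selected on their measured levels in these same libraries and found by symbol among 58892 gene IDs, of which 2347 lie on chromosome X. Their levels are therefore a description, with no test. RNA was measured in 3 cultures of KKU-213, an established human line grown from an intrahepatic cholangiocarcinoma, which is a bile duct cancer of the liver. L5 is KKU-213L5, a subline derived from KKU-213 and known for its strong metastatic capacity, in DMEM with 25 mM glucose. HG is KKU-213 itself in DMEM with 25 mM glucose, and NG is KKU-213 in DMEM with 5.6 mM glucose. All 3 cultures had fetal bovine serum and antibiotics in the medium, and each is labelled with a passage number above 5. Each group is 1 library of poly-A RNA, so no difference below has a replicate check. HG against NG sets 25 mM against 5.6 mM glucose in the same line. L5 against HG sets the subline against its parent in the same medium, and L5 against NG differs in both line and medium.

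Cancer-testis genes on the X chromosome mostly sit in families of recent, near-identical copies, and in somatic cells they are held silent by DNA methylation at their promoters together with repressive chromatin. In mouse embryonic stem cells, germline genes are also repressed by a Polycomb complex in which MGA and MAX read the E-box CACGTG while E2F6 reads E2F sites. GAGE and PAGE proteins are small, acidic and largely unstructured, and GAGE peptides are known as tumour antigens that T cells recognise. SSX proteins are nuclear repressors that bind Polycomb-marked chromatin, and SSX1 is a fusion partner of SS18 in synovial sarcoma. VCX proteins are small, are made in male germ cells, and end in a run of short repeats. VCX3A is known to bind the decapping enzyme DCP2.

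The sequences below show what the copies share and what sets them apart. The promoter stretches come from RefSeq windows on GRCh38.p14 that run from 250 bases before to 50 bases after each annotated start, and all 7 genes had a window. The capitals mark the E-box CACGTG in the PAGE1 and GAGE2A stretches. In PAGE1 the E-box begins 6 bases before the start, and in GAGE2A at base 24 of the first exon. The PAGE1 stretch is chrX:49695973-49696002 on the minus strand and the GAGE2A stretch is chrX:49589507-49589536 on the plus strand.
PAGE1: ggccccttcgccCACGTGgagaacgccagg
GAGE2A: ggccccttcgccCACGTGaagaacgccagg
The 2 stretches had 29 of 30 bases in common. All 13 GAGE windows held CACGTG, which reads the same on both strands, against 7.26% of the 35116 RefSeq windows of this length. The SSX1 window and the windows of the 4 VCX genes held none. The 13 GAGE windows come from copies of the same family, and the motif was chosen after the windows had been read. Nothing is therefore read from the count of 13.

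The second set shows the E2F-type motif GGCGGGAA, searched on both strands and shown in capitals. It begins 229 bases before the SSX1 start and 124 bases before the VCX start, where the plus strand carries its reverse complement. The printed SSX1 stretch is chrX:48255152-48255181 and the VCX stretch is chrX:7843036-7843065, both on the plus strand.
SSX1: gggatgctttaGGCGGGAAagtcagagttt
VCX: taaggccttccTTCCCGCCcagggcgacca
This motif was in 3.16% of all windows, and in none of the PAGE1, GAGE2A, VCX2, VCX3A and VCX3B windows. The 4 VCX windows do not all cover matching sequence. All 76 runs of 25 bases in the last 100 bases before the VCX start were found inside the annotated transcripts of VCX2 and VCX3A, and inside the longer VCX transcript itself. In VCX3B 51 of the 76 were found in 3 transcripts and 0 in the shortest. The VCX window held 16 CpG, against 3 in VCX2, 1 in VCX3A and 3 in VCX3B. PAGE1 and GAGE2A had 13 each, SSX1 had 5, and the median of all windows was 14. Both motifs were chosen after these windows had been read. A match is a description of the letters and does not show that a factor was bound there.

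The third set shows the repeat of 30 bases near the end of the VCX coding sequence, from GENCODE v29 transcripts on GRCh38. The first copy in the longest transcript of each gene is printed, and capitals mark the 12 bases that recur most often.
VCX: CTGAGTCAGGAGgccgagctggaggaacca
VCX2: CTGAGTCAGGAGagcgaggtggaagaacca
VCX3A: CTGAGTCAGGAGagcgagctggaggaacca
VCX3B: CTGAGTCAGGAGagcgagctggaggaacca
In these longest transcripts exact copies of the 12 bases numbered 9 in VCX, 2 in VCX2, 8 in VCX3A and 14 in VCX3B. The count also varied between transcripts of 1 gene, with 7 and 9 in VCX, 6 and 8 in VCX3A, and 2, 8, 11 and 14 in VCX3B. Reads were 100 bases long. Each deposited member transcript that was found in GENCODE v29 was cut into overlapping windows of 100 bases. Each window was looked up in the GENCODE v29 transcripts of all other genes. Missing from this search was ENST00000440654, the VCX3B transcript with the largest share of the gene in each library. For VCX3A 76.5% and 85.5% of the windows of its 2 isoforms were found unaltered in another gene. The share was 64.1% for VCX2, 51.4% and 54.8% for the 2 VCX isoforms, and 45.9% to 52.5% for 4 VCX3B isoforms. GAGE2A shared 53.4% of its windows with 12 other GAGE genes. PAGE1 and SSX1 shared 0% of theirs. Only exact matches were counted, so reads shared with copies that differ by a few bases were not looked at. The split of reads within the VCX and GAGE families is uncertain, and family sums are given beside single genes.

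Levels are FPKM, which scale fragments to transcript length and library size, with the authors' 95% bounds. The coverage columns put the depth at 68.7 M fragments in L5, 76.0 M in HG and 47.1 M in NG. In L5 12808 genes reached 1 FPKM, in HG 12666 and in NG 13062. The deposited bounds held the listed FPKM in 96.8%, 96.6% and 97.0% of gene IDs of L5, HG and NG. These shares include the many gene IDs listed at 0, and the share among expressed genes alone was not computed. For PAGE1 in HG and NG, and for GAGE2A, SSX1 and VCX2 in NG, the FPKM lies above its upper bound. Ratios are given as log2 of (FPKM + 1), a scale that makes differences between low values look smaller, and errors after ± are counting standard errors. The bile duct keratin KRT7 was listed at 789 FPKM in L5, 784 in HG and 992 in NG. Of 16 germ cell markers, among them DAZL and DDX4, 0 reached 1 FPKM in any library, and their sum was 1.19, 0.498 and 0.773 FPKM in L5, HG and NG. Of 6 Sertoli and Leydig cell markers 0 reached 1 FPKM. In bulk RNA, fewer cells with a transcript and less of it per cell cannot be told apart.

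PAGE1 (ENSG00000068985, chromosome X, 49452053 to 49460596 on GRCh37), a relative of the GAGE antigens, was the most abundant of the 7 genes in HG and NG. It was listed at 0.356 FPKM in L5, 70.4 in HG and 410.9 in NG, from an estimated 16.3, 3560 and 12880 fragments. NG was thus highest and L5 near 0, and no 2 of the 3 deposited intervals overlapped. In NG it ranked 194th among the genes at 1 FPKM or more, and in HG 1200th. The log2 ratio was -2.53 ± 0.043 for HG against NG, -5.72 ± 0.12 for L5 against HG and -8.25 ± 0.11 for L5 against NG. HG held 17.1% of the NG level and L5 held 0.506% of the HG level. The other 5 PAGE genes stayed under 1 FPKM in all 3 libraries, and PAGE1 made up 55.8% of the PAGE sum in L5, 99.3% in HG and 99.9% in NG. The sum over the 6 genes was 0.638 FPKM in L5, 70.9 in HG and 411.3 in NG, so L5 held 0.900% of the HG sum.

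**Figure D1:**
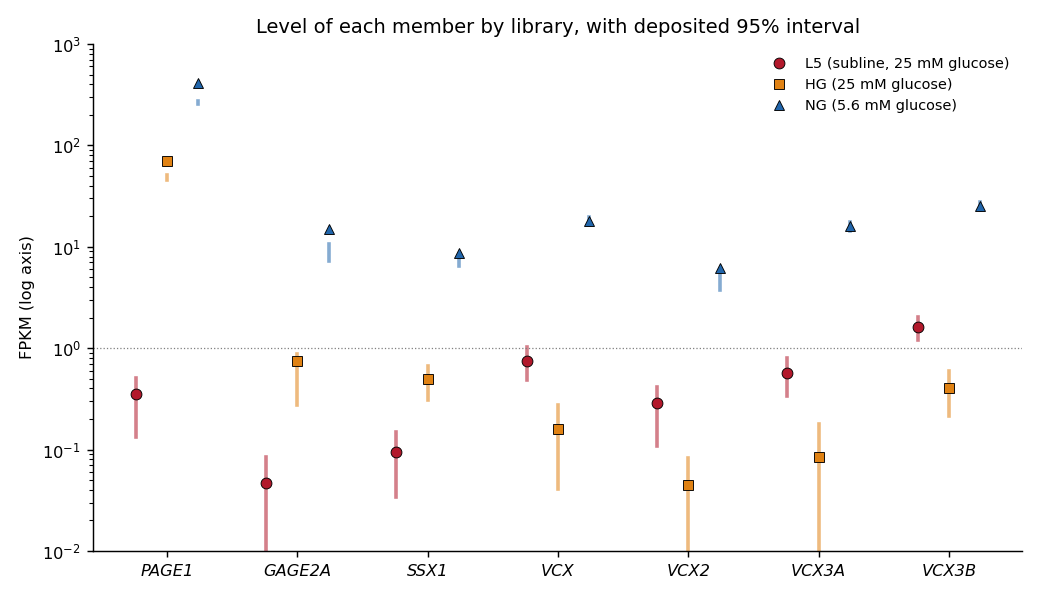
FPKM (log axis) of the 7 genes in L5 (circles), HG (squares) and NG (triangles), with bars for the deposited 95% interval, cut at the lower axis limit where the bound is lower. NG is highest for every gene; for PAGE1, GAGE2A and SSX1 L5 is lowest, and for the 4 VCX genes HG is lowest.

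GAGE2A (ENSG00000189064, chromosome X, 49354132 to 49361430), a GAGE antigen gene, was listed at 0.0462 FPKM in L5, 0.752 in HG and 15.0 in NG. These rest on an estimated 1.68, 19.6 and 253.9 fragments, so the L5 value is near the limit of detection. The order of the libraries was that of PAGE1, and the intervals did not overlap. The log2 ratio was -3.19 ± 0.21 for HG against NG, -0.74 ± 0.16 for L5 against HG and -3.93 ± 0.13 for L5 against NG. The sum over the 17 GAGE gene IDs of at least 300 nt was 0.0462 FPKM in L5, 1.08 in HG and 22.2 in NG, and 16 of the 17 were listed at 0 in L5. The log2 ratio of the sum was -3.48 ± 0.18 for HG against NG, -0.99 ± 0.16 for L5 against HG and -4.47 ± 0.10 for L5 against NG. GAGE2A made up 69.4% of the sum in HG and 67.6% in NG. Next to it GAGE2C, GAGE2E and GAGE12C reached 1 FPKM, at 1.14, 1.06 and 1.00 FPKM in NG; all 3 were listed at 0 in L5 and lay under 0.1 FPKM in HG. GAGE12B, annotated as a single stretch of 117 nt, was listed at 6.25 FPKM in NG with an interval of 0 to 1.28 and at 0 in L5 and HG; with it, the NG sum is 28.4 FPKM.

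SSX1 (ENSG00000126752, chromosome X, 48114752 to 48126879), the synovial sarcoma fusion partner, was listed at 0.0946 FPKM in L5, 0.499 in HG and 8.67 in NG, from 8.44, 47.5 and 522 fragments. The libraries again stood in the order NG, HG, L5, with intervals that did not overlap. The log2 ratio was -2.69 ± 0.12 for HG against NG, -0.45 ± 0.10 for L5 against HG and -3.14 ± 0.087 for L5 against NG. SSX6, which GENCODE v29 lists as a pseudogene, was the only other SSX gene ID at 1 FPKM, at 0 FPKM in L5, 1.67 in HG and 8.59 in NG. It thus had the same order as SSX1, and it made up 67.2% of the SSX sum in HG against 46.0% in NG. The sum over 11 SSX gene IDs was 0.129 FPKM in L5, 2.49 in HG and 18.7 in NG. Of the proteins that SSX is known to work with, LHX4, a LIM homeobox factor, had the order of SSX1 at a low level, with 0.332 FPKM in L5, 0.467 in HG and 0.728 in NG, and its L5 and HG intervals overlapped. The other 4 had other orders. SS18, the fusion partner of SSX1, was listed at 41.8 FPKM in L5, 36.7 in HG and 52.6 in NG. SSX2IP, a centriolar satellite protein first found through SSX2, was listed at 23.3 FPKM in L5, 28.7 in HG and 15.5 in NG. RAB3IP, an exchange factor for Rab GTPases, was listed at 18.8, 17.1 and 12.9 FPKM in L5, HG and NG, and SS18L1, a paralogue of SS18, at 8.55, 10.0 and 9.16 FPKM. None of these 5 had a log2 ratio of 1 or more in size in any comparison.

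The VCX genes span 1.98 Mb of the short arm of the X chromosome and ran in another order, with NG highest, L5 next and HG lowest. VCX3B (ENSG00000205642, chromosome X, 8432871 to 8434550) was listed at 1.62 FPKM in L5, 0.408 in HG and 25.3 in NG. VCX (ENSG00000182583, 7810303 to 7812184) was listed at 0.753 FPKM in L5, 0.158 in HG and 18.0 in NG. VCX3A (ENSG00000169059, 6451659 to 6453159) was listed at 0.569 FPKM in L5, 0.0845 in HG and 15.8 in NG. In all 3 genes HG was below L5 and both were far below NG. VCX2 (ENSG00000177504, 8137989 to 8139308) was listed at 0.288 FPKM in L5, 0.0447 in HG and 6.12 in NG. The HG values are thin. They rest on 25.7 fragments for VCX3B, 10.7 for VCX, 5.63 for VCX3A and 2.75 for VCX2, while the same genes had 93.7, 43.5, 33.1 and 16.0 fragments in L5. The deposited intervals of L5 and HG did not overlap for any of the 4 genes.

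For HG against NG the log2 ratio was -4.22 ± 0.11 for VCX3B, -4.04 ± 0.097 for VCX, -3.96 ± 0.095 for VCX3A and -2.77 ± 0.12 for VCX2. For L5 against HG it was 0.90 ± 0.15 for VCX3B, 0.60 ± 0.13 for VCX, 0.53 ± 0.12 for VCX3A and 0.30 ± 0.098 for VCX2. For L5 against NG it was -3.33 ± 0.13 for VCX3B, -3.44 ± 0.13 for VCX, -3.42 ± 0.13 for VCX3A and -2.47 ± 0.15 for VCX2. The VCX sum depends less on how reads were split among the X copies, though each transcript's reads are divided by its own length and the Y-linked copies, which share windows with all 4 genes, lie outside it. It was 3.23 FPKM in L5, 0.695 in HG and 65.3 in NG. HG held 1.06% of the NG sum, and L5 held 4.95% of it. The L5 sum was 4.65-fold the HG sum, with a log2 ratio of 1.32 ± 0.14. VCX3B was the largest part of the sum in each library, at 50.2% in L5, 58.7% in HG and 38.7% in NG, and VCX2 the smallest, at 8.91%, 6.43% and 9.37%. Within NG the intervals of VCX and VCX3A overlapped, so the order of their levels is not resolved.

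Isoform estimates were available for the VCX genes alone, since PAGE1, GAGE2A, SSX1 and VCX2 are each listed with 1 transcript. The shorter VCX3A transcript, ENST00000398729 of 808 nt, carried 79.2% of the gene's FPKM in L5, 63.5% in HG and 91.1% in NG. VCX3B was spread over ENST00000440654, with 40.4% in L5, 57.9% in HG and 40.1% in NG, and ENST00000444481, with 34.7%, 26.3% and 39.4%. The VCX transcript ENST00000341408 held 67.5% in L5, 39.4% in HG and 43.9% in NG. In HG the isoform estimates rest on 13.9 fragments or fewer each, so the shares there carry little information. With so few fragments on near-identical transcripts, no difference in isoform use is read from them.

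Against all genes, the 7 members stood at the lower edge of both comparisons with NG. A gene entered a comparison with a longest isoform of at least 300 nt and at least 1 FPKM in 1 of the 2 libraries, and passed the size rule with a log2 ratio of at least 1 in size. In HG against NG all 7 were lower, where 2.88% of 13383 genes were lower and 1.32% higher. Their median log2 ratio was -3.19, against -0.09 over all genes. In L5 against NG all 7 were lower, where 2.03% of 13474 genes were lower and 1.89% higher, with a median of -3.42 against -0.10. PAGE1 had the lowest ratio of all genes in L5 against NG, and VCX3B the second lowest in HG against NG. The members were chosen on these contrasts, and the other 6 beside PAGE1 entered HG against NG through NG alone, so nothing is read from these counts. The deposited intervals were separate in both comparisons for all 7, but separation was common: in HG against NG 31.2% of genes were separate and lower and 17.7% separate and higher, and in L5 against NG 30.4% and 16.5%.

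In L5 against HG 1 member, PAGE1, was lower by the size rule, where 0.510% of 13129 genes were lower and 1.72% higher. VCX3B was the one other member to reach 1 FPKM in either library, and did not pass. PAGE1 entered this comparison through HG alone and VCX3B through L5 alone. The members were chosen on their levels, so nothing is read from the count of 1. By separate intervals 3 of the 7, PAGE1, GAGE2A and SSX1, were lower in L5, and all 4 VCX genes were higher in L5. Over the 13129 genes compared 22.1% were separate and lower and 21.0% separate and higher, so separation in either direction was common between L5 and HG. Of the 7 members only PAGE1 and VCX3B are among these genes. For the others, under 1 FPKM in both libraries, the share was not computed on a matched set. The 3 comparisons share libraries in pairs and are not independent of each other.

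**Figure D2:**
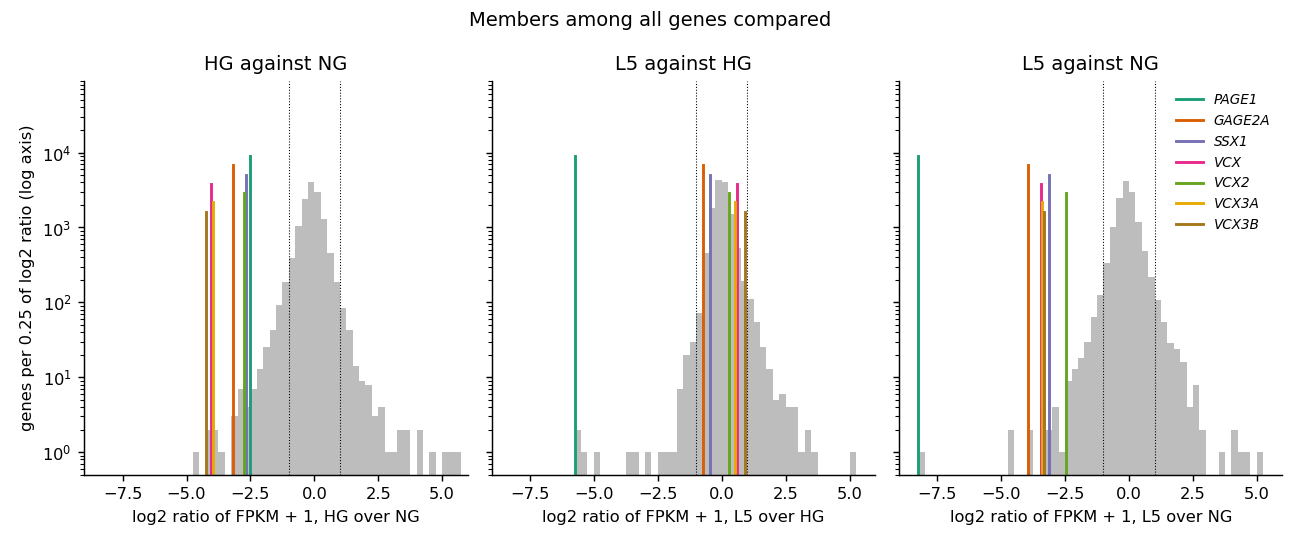
Histograms of the log2 ratio of FPKM + 1 over all genes compared (grey, log count axis), with the 7 members as coloured lines whose heights carry no value and dotted lines at -1 and 1. In both comparisons with NG the members lie from -8.25 to -2.47, and in L5 against HG PAGE1 at -5.72 stands apart from the others at -0.74 to 0.90.

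More of the other X-linked cancer-testis genes reached 1 FPKM in L5 and HG than in NG. Of 76 gene IDs in the MAGEA, MAGEB, MAGEC, CSAG, SPANX and related groups, 15 reached 1 FPKM in L5, 10 in HG and 5 in NG. In HG against NG 6 of the 10 measured passed the size rule as higher and 1 as lower, with a median of 1.15. Of all genes 1.32% were higher and 2.88% lower. In L5 against NG 9 of 15 were higher and 0 lower, with a median of 1.62, against 1.89% and 2.03% of all genes. In L5 against HG 7 of 17 were higher and 3 lower, with a median of 0.79, against 1.72% and 0.510% of all genes. Of the genes called higher, only MAGEA6 reached 1 FPKM in the lower library of its comparison. The others entered through the library where they are high. SPANXB1 and SPANXB2 were listed at the same values. Nothing is read from these counts and medians. MAGEA3, the highest of these genes and a target of tumour vaccines, was listed at 105.9 FPKM in L5, 61.0 in HG and 53.5 in NG. MAGEA6, a near-identical copy that may share its reads, was listed at 98.1, 37.0 and 15.0 FPKM in L5, HG and NG, and MAGEB2 at 33.1, 20.8 and 26.7 FPKM. PLAC1, a gene of placenta, and DDX53, a germ cell RNA helicase, had NG highest. PLAC1 was listed at 4.05, 2.68 and 6.80 FPKM and DDX53 at 2.61, 1.48 and 3.66 FPKM in L5, HG and NG. The XAGE family, related to PAGE and GAGE, was nearly silent in all 3 libraries, with 0 of 9 gene IDs at 1 FPKM and a sum of 0.497 FPKM in L5, 0.501 in HG and 0.270 in NG. Without the cancer-testis genes, 18 of 452 genes of chromosome X were lower and 6 higher in HG against NG, and their median was -0.16. The lower genes made 3.98% of the 452, against 2.88% of all genes, and 1.32% of all genes were higher.

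**Figure D3:**
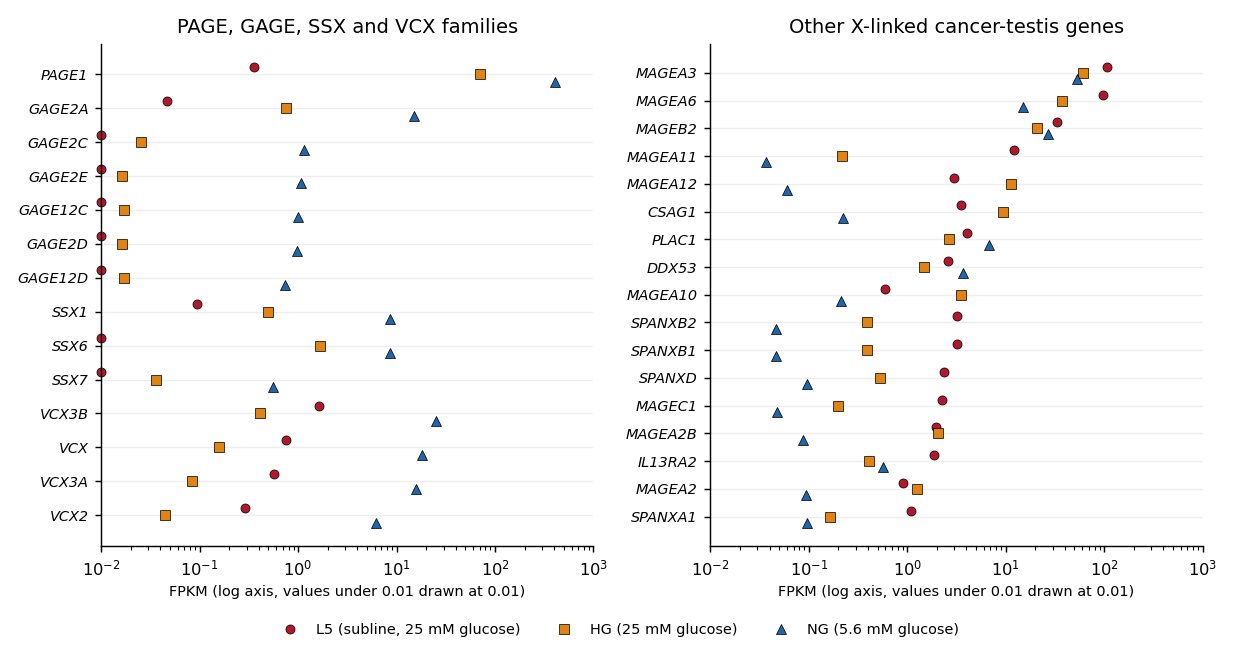
FPKM (log axis, values under 0.01 drawn at 0.01) in L5 (circles), HG (squares) and NG (triangles) of the PAGE, GAGE, SSX and VCX genes that reach 0.5 FPKM (left) and of the other X-linked cancer-testis genes that reach 1 FPKM (right). On the left NG is highest for every gene shown, while on the right MAGEA6 has 98.1 FPKM in L5 and 15.0 in NG.

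The expressed genes that surround the members on chromosome X passed the size rule about as often as all genes did in HG against NG. The 5 nearest gene IDs on each side of each member that reach 1 FPKM and belong to no list above made 33 different genes. In HG against NG 1 of the 33 was lower and 1 higher, with a median log2 ratio of -0.15, where 2.88% of all genes were lower and 1.32% higher. In L5 against HG 0 passed in either direction, where 0.510% of all genes were lower and 1.72% higher. In L5 against NG 1 was lower and 0 higher, where 2.03% of all genes were lower and 1.89% higher. PNPLA4, a lipase family gene 54.1 kb from VCX, was listed at 17.8 FPKM in L5, 16.2 in HG and 15.5 in NG, while VCX itself differed as given above. STS, the steroid sulfatase gene that lies between VCX3A and VCX, was listed at 2.28, 2.61 and 2.60 FPKM in L5, HG and NG. The neighbour that was lower in both comparisons with NG was CCNB3, 507 kb from PAGE1, which encodes a cyclin of meiotic cells and was listed at 1.05 FPKM in L5, 1.17 in HG and 7.39 in NG. Its log2 ratio was -1.95 in HG against NG, -0.09 in L5 against HG and -2.04 in L5 against NG, so L5 and HG lay close together in CCNB3 and far apart in PAGE1. The neighbour that was higher in HG than in NG was TBL1X, a corepressor subunit, at 1.22 FPKM in L5, 3.03 in HG and 0.489 in NG.

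**Figure D4:**
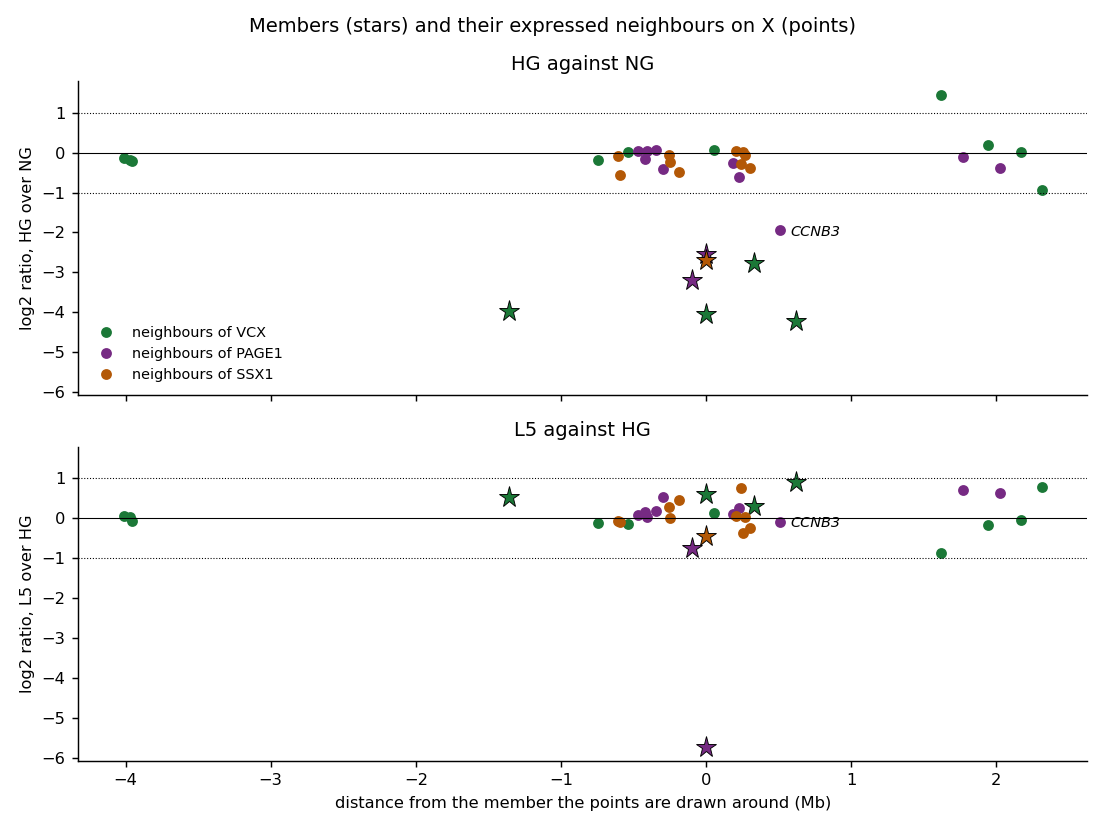
Log2 ratio of FPKM + 1 of the members (stars) and of their nearest expressed neighbours on chromosome X (points) against distance in Mb from VCX, PAGE1 or SSX1, with dotted lines at -1 and 1. In HG against NG the members lie at -2.53 or lower and the neighbours, other than CCNB3 at -1.95, lie above -1.

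Of 36 known regulators of germline gene silencing 33 reached 1 FPKM, and 1 of them passed the size rule, in both comparisons with NG. Over all genes 1.32% were higher and 2.88% lower in HG against NG, and 1.89% and 2.03% in L5 against NG. Nothing is read from the count of 1. MGA (ENSG00000174197, chromosome 15, 41913422 to 42062141), the E-box reader of the E2F6 complex, was listed at 5.95 FPKM in L5, 6.38 in HG and 0.218 in NG. NG was the low library, with a deposited interval of 0.0586 to 0.418 against 5.69 to 6.25 in L5 and 6.05 to 6.72 in HG. The log2 ratio was 2.60 ± 0.10 for HG against NG, 2.51 ± 0.10 for L5 against NG and -0.09 ± 0.044 for L5 against HG. The library with the least MGA was thus the one with the most of every member, while L5 and HG, whose intervals for MGA overlapped, differed in the members. Whether MGA has a part in the members' levels was not tested.

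The other 10 genes of the E2F6 complex stayed within a log2 ratio of 1. E2F6, its DNA-binding subunit, was listed at 17.0 FPKM in L5, 17.8 in HG and 26.0 in NG, and MAX, the dimer partner of MGA, at 39.5, 38.4 and 42.1 FPKM. The maintenance DNA methyltransferase DNMT1 was listed at 55.9 FPKM in L5, 48.5 in HG and 55.1 in NG, and UHRF1, which brings it to newly copied DNA, at 24.7, 23.0 and 31.2 FPKM. DNMT3A, a de novo methyltransferase, was listed at 3.77 FPKM in L5, 3.09 in HG and 5.24 in NG, with a log2 ratio of -0.61 ± 0.11 in HG against NG. EHMT1, a histone methyltransferase, had the lowest ratio of the list in HG against NG at -0.65 ± 0.10 and the highest in L5 against HG at 0.35, with 15.1 FPKM in L5, 11.7 in HG and 18.9 in NG. HDAC2, a histone deacetylase, had the lowest ratio in L5 against HG at -0.56, with 135.0 FPKM in L5, 199.2 in HG and 154.4 in NG. CTCFL, a testis paralogue of CTCF known to switch on cancer-testis genes, was listed at 0 in all 3 libraries.

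**Figure D5:**
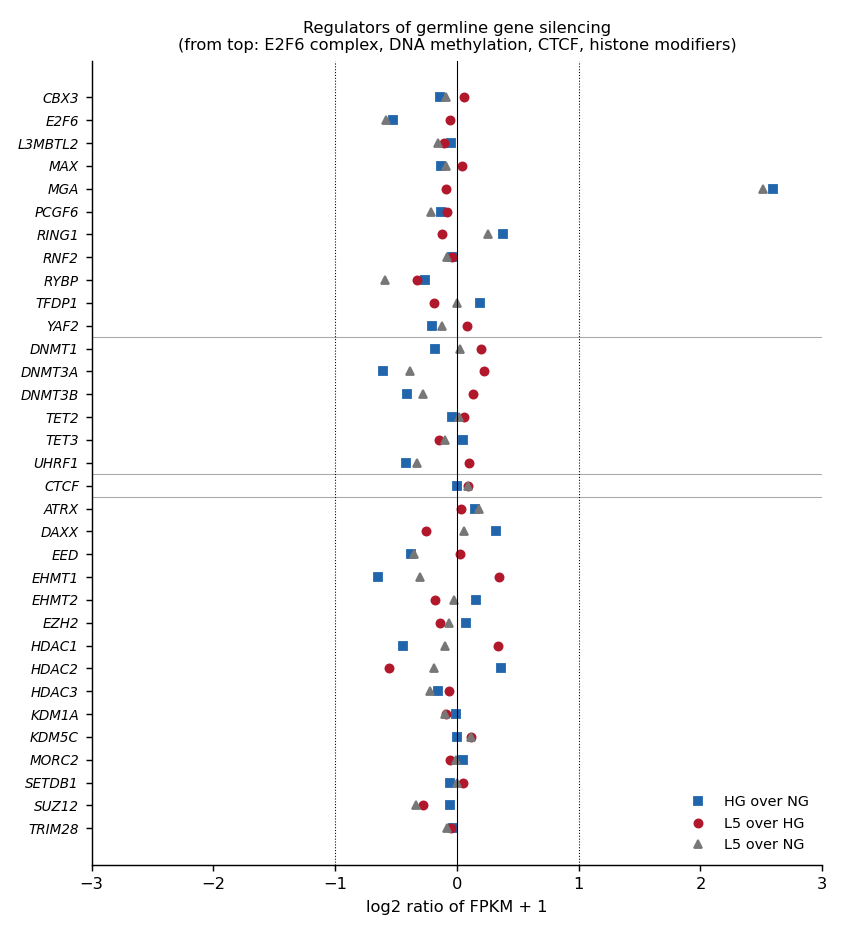
Log2 ratio of FPKM + 1 of the 33 expressed regulators of germline gene silencing for HG over NG (squares), L5 over HG (circles) and L5 over NG (triangles), with dotted lines at -1 and 1. MGA lies at 2.60 and 2.51 in both comparisons with NG and at -0.09 in L5 against HG, and the other 32 lie between the dotted lines.

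Genes with the most similar pattern were sought among 9264 genes of at least 5 FPKM in 1 library, by how far their ratios lay from the member's in the plane of the HG to NG and the L5 to HG ratio, over 3 libraries. Closest to the GAGE sum was ACTL8, an actin-like gene of chromosome 1 that is itself a cancer-testis gene, at a distance of 0.23, with 0.570 FPKM in L5, 1.85 in HG and 35.2 in NG. SSX1 came next at 0.95, followed by CTC-546K23.1 at 1.05. Closest to SSX1 were CTC-546K23.1 at 0.40, XKR9 at 0.48 and COX7B2, a testis form of a cytochrome c oxidase subunit, at 0.49. COX7B2 was listed at 3.72 FPKM in L5, 4.27 in HG and 24.9 in NG. Nothing lay near PAGE1, whose closest genes, AC119673.1, SSX6 and HNRNPA3P5, were 3.12, 4.35 and 4.62 away. Near the VCX sum lay ANXA6, a membrane-binding annexin, at 1.34, and ZNF888 at 2.48. ANXA6 was listed at 8.94 FPKM in L5, 2.50 in HG and 53.5 in NG, which is the VCX order of libraries.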

How the data were processed

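The authors' FPKM values and 95% bounds were used as deposited. The submitters' processing notes name BWA, TopHat, Cufflinks and the build GRCh37; versions are not given in the sources used here. The coverage signal is the read depth per transcript, per the file headers, and transcript lengths are listed beside it. Coverage times length over 200 bases gave the fragments; coverage over FPKM was constant within 1% for 90.0%, 90.3% and 88.7% of transcripts in L5, HG and NG. The 92 spike-ins, genes of a status other than OK and Y-linked copies were left out. Counting errors were taken from the bounds, rescaled to the listed FPKM; errors of sums treat copies as independent. Fragments from PCR are not independent molecules, so errors and intervals cover counting error only. With 1 library per group no test was made. Members, lists and neighbours (the named-gene rule is the one stated at each list) were chosen with earlier results of these data known. A gene that the rule names is not reported here. Steps were tested on simulated data. Python 3.11.15, pandas 2.3.3, numpy 2.4.6 and matplotlib 3.10.9 were used. Promoters are from RefSeq (GRCh38.p14) and transcripts from GENCODE v29 on GRCh38, some of which differ in length from the deposited ones, so no coordinates were carried between builds.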

Additional observations from a re-analysis of the deposited data

How the results depend on the processing

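No sign of a member's or family sum's ratio turned under any setting. The counts of 7 lower members in HG against NG and in L5 against NG were the same under every setting run. In L5 against HG the count of lower members was 3 with a pseudocount of 0.1 and by separate intervals, against 1, and of higher members 4 under the same settings, against 0. For L5 against HG the GAGE2A ratio ran from -2.54 to -0.19 and that of the VCX sum from 0.53 to 2.07. Spike-in scaling moved the median of all genes to -0.48 in HG against NG, -0.35 in L5 against HG and -0.86 in L5 against NG. The share of all genes called lower, without a filter, with a pseudocount of 0.1, with a pseudocount of 5 and with spike-in scaling, was 0.838%, 5.98%, 0.717% and 8.05% in HG against NG, 0.146%, 1.01%, 0.114% and 1.69% in L5 against HG, and 0.596%, 4.52%, 0.557% and 33.3% in L5 against NG. The share called higher was 0.383%, 2.25%, 0.403% and 0.545% in HG against NG, 0.492%, 3.32%, 0.457% and 0.693% in L5 against HG, and 0.553%, 3.08%, 0.571% and 0.482% in L5 against NG. The cause was not tested. Counting GAGE12B, chosen after seeing the data, left the GAGE direction as it was. No paired analysis was possible because each group has 1 library. Depth limits the VCX values in HG and GAGE2A in L5.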
